A study of Mus musculus with 9 samples.

Results

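The 10 genes described here encode the enzymes that lead from methionine to cysteine and from cysteine to taurine or glutathione: Mat2a, Mat2b, Ahcy, Cbs, Cth, Cdo1, Csad, Gclc, Gclm and Gss. They were selected by name from a table of 41761 genes. Cdo1 was chosen by its strong increase with dose in these same FPKM values, so its values are given as a description with no test. The other 9 were included for their place in the pathway, with earlier results of these data known. RNA had been sequenced from primary cells of wild type C57 mice, obtained from inguinal white adipose tissue as stromal cells and differentiated in culture towards white adipocytes. Sodium alginate, a polysaccharide salt of brown algae, was present at 0, 50 or 100 µM throughout, with 3 libraries per dose and 9 in all. Cells at every dose, 0 µM included, received 1 µg/ml insulin, 1 µM dexamethasone and 0.5 mM IBMX for the first 2 days and insulin afterwards. The treatment protocol adds 1 µM rosiglitazone, a PPARγ agonist, at every dose, whereas the study's design text does not list it. Titles give day 6 and the protocol gives RNA collection on day 7. For the 100 µM libraries the title says 50 µM, but the treatment label and the library name give 100 µM, and these were followed. The labels do not tell whether libraries of 1 dose were separate cultures or separate animals. The p-values therefore reflect only how these libraries varied, and that variation may be technical.

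Methionine is activated to S-adenosylmethionine, the methyl donor of the cell, and the product left after methyl transfer is split to homocysteine. Homocysteine is joined to serine and cleaved to cysteine, a route called transsulfuration. Cysteine is then either oxidised towards taurine, built into the antioxidant tripeptide glutathione, or used for coenzyme A and protein. White fat is known for a high level of cysteine dioxygenase, the enzyme that commits cysteine to taurine.

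At 100 µM alginate Cth, which releases cysteine, and Cdo1 and Csad, which turn cysteine towards taurine, were higher than at 0 µM, and Gclc, the catalytic gene that starts glutathione synthesis, was lower. Cdo1, chosen for its rise and not tested, averaged 767 FPKM at 100 µM and 379 FPKM at 0 µM. FPKM is the fragment count scaled to gene length and library depth, so levels can be set side by side between genes. Csad and Cth rose, each by 0.53 on the log2(FPKM + 1) scale. Gclc fell by 0.35 on that scale. Gclm, the partner of Gclc, did not pass the test at any dose. The change was not confined to the taurine side. Mat2a, at the start of the pathway, rose by 0.34. Gss, which completes glutathione, was higher by 0.20, Mat2b by 0.20 and Ahcy by 0.17. Of 19 alternative analyses, 7 lost the result for Gss, 14 for Mat2b and 18 for Ahcy. Cbs did not pass the test at 100 µM against 0 µM.

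Promoter sequence is shown for 3 of the genes whose responses differed: Csad and Mat2a, which rose, and Gclm, which passed no test although its enzyme partner Gclc fell. Each run spans 250 bases before to 50 bases after the annotated start (RefSeq, GRCm38.p6), read 5′ to 3′ on the gene's strand. The Csad run is chr15:102205003-102205302 on the minus strand, the Mat2a run chr6:72439507-72439806 on the minus strand and the Gclm run chr3:122245307-122245606 on the plus strand. Capitals mark matches on either strand to any of 6 motifs. The TATA box was searched as TATAAA and the CCAAT box by its own letters. The core of the antioxidant response element was searched as TGACNNNGC. The C/EBP-ATF element was searched as TGATGNAA and the E-box as CACGTG. The PPAR direct repeat was searched as a pair of AGGTCA with 1 base between them.
Csad: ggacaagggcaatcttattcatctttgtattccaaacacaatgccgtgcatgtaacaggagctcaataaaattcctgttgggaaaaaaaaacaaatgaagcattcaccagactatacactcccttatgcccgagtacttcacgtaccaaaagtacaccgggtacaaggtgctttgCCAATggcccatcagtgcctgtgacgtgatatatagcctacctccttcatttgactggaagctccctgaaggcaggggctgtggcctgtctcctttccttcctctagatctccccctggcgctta
Mat2a: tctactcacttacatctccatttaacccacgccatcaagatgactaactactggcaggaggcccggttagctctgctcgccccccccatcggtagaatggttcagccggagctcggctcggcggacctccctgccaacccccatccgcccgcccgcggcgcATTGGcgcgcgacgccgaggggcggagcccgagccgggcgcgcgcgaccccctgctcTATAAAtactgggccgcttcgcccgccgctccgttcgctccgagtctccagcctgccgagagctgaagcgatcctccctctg
Gclm: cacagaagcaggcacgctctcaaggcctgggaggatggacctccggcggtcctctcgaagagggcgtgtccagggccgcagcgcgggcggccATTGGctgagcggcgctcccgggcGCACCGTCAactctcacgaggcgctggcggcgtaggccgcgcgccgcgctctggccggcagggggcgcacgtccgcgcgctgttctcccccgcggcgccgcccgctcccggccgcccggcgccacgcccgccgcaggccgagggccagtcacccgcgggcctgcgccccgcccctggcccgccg
Csad held a CCAAT box 75 bases before the start, and Csad has another start in the same annotation whose window held none of these motifs. Mat2a held TATAAA 32 bases before the start and CCAAT, on the opposite strand, 89 bases before it. Gclm held CCAAT 158 bases and TGACNNNGC 134 bases before the start, both on the opposite strand. Of 32544 annotated promoters of the same 300 bases, 13.6% held TATAAA, 37.4% held CCAAT and 12.4% held TGACNNNGC. Windows were found for 7 of the 10 genes. Cdo1, Cth and Gclc had none and were not searched, so Gclm cannot be compared with Gclc here. Gclm was the only one of the 7 with TGACNNNGC in its window. None of the 7 held TGATGNAA, which 3.91% of all promoters held, or the PPAR direct repeat, which 0.0399% held. A match is a description of the letters and not a binding site, and a missing match says only that these letters are not in this window.

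Rebuilt whole reads ranged from 14019672 to 17094467 per library, and between 51 and 18984 reads per library fell on any of the 10 genes. All 10 passed the filter on low values, which asked for at least 1 FPKM in at least 3 libraries and kept 12635 genes. Every adjusted p below is from limma (two-sided, Benjamini-Hochberg over the 12635 genes), and below 0.05 a gene is described as called. At 100 µM against 0 µM, 18.3% of all genes tested were called higher and 15.6% lower. That split depends on scaling. The fit called 2314 genes higher and 1965 lower, against 1630 and 2633 on values rescaled to a common sum and 1731 and 2658 with the authors' library factor removed. The labelled cell type is mature white adipocyte, and 12 of 12 tested adipocyte markers were called higher at 100 µM than at 0 µM. The summed level of the adipocyte markers was 10182 to 10893 FPKM at 100 µM and 7137 to 7280 FPKM at 0 µM. The adipocyte hormone gene Lep did not pass the filter. It was listed at 0 in the 0 and 50 µM libraries and averaged 0.0192 FPKM at 100 µM. Of the progenitor and stromal markers, 8 of 9 tested were called lower, with sums of 2144 to 2563 FPKM at 100 µM and 3002 to 3223 FPKM at 0 µM. Macrophage markers were called lower for 6 of 8, summing to 143 to 150 FPKM at 100 µM and 184 to 200 FPKM at 0 µM, with Itgam listed at 0 at both of these doses. Endothelial markers were called lower for 7 of 8, summing to 133 to 136 FPKM at 100 µM and 159 to 179 FPKM at 0 µM. Smooth muscle markers were called higher for 2 and lower for 2 of 7, summing to 202 to 221 FPKM at 100 µM and 292 to 335 FPKM at 0 µM. The part of these shifts in the results below was not tested, and in bulk RNA fewer cells of a type and less RNA per cell cannot be told apart. The 50 µM library 3 stood apart from the other 8 libraries on the second principal component, at -19.12 against -4.62 to 11.4.

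Of the 9 genes other than Cdo1, 6 were called higher and 1 lower at 100 µM against 0 µM, beside the 18.3% and 15.6% of all genes. The 6 were Csad, Cth, Mat2a, Mat2b, Gss and Ahcy, and the 1 was Gclc. Cbs and Gclm were not called. Their median log2 fold change was 0.20, where the median over all genes tested was 0.006. The 3 and 3 values did not overlap for 6 of the 9 in the higher direction and 1 in the lower, where 25.0% and 22.9% of all genes had such a gap. The calls of Csad, Cth, Mat2a and Gclc held in all 19 alternative analyses. Those of Gss, Mat2b and Ahcy did not, and 3 rather than 6 genes were called higher without 0 µM library 1, without 0 µM library 3 or without 100 µM library 3.

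**Figure D1:**
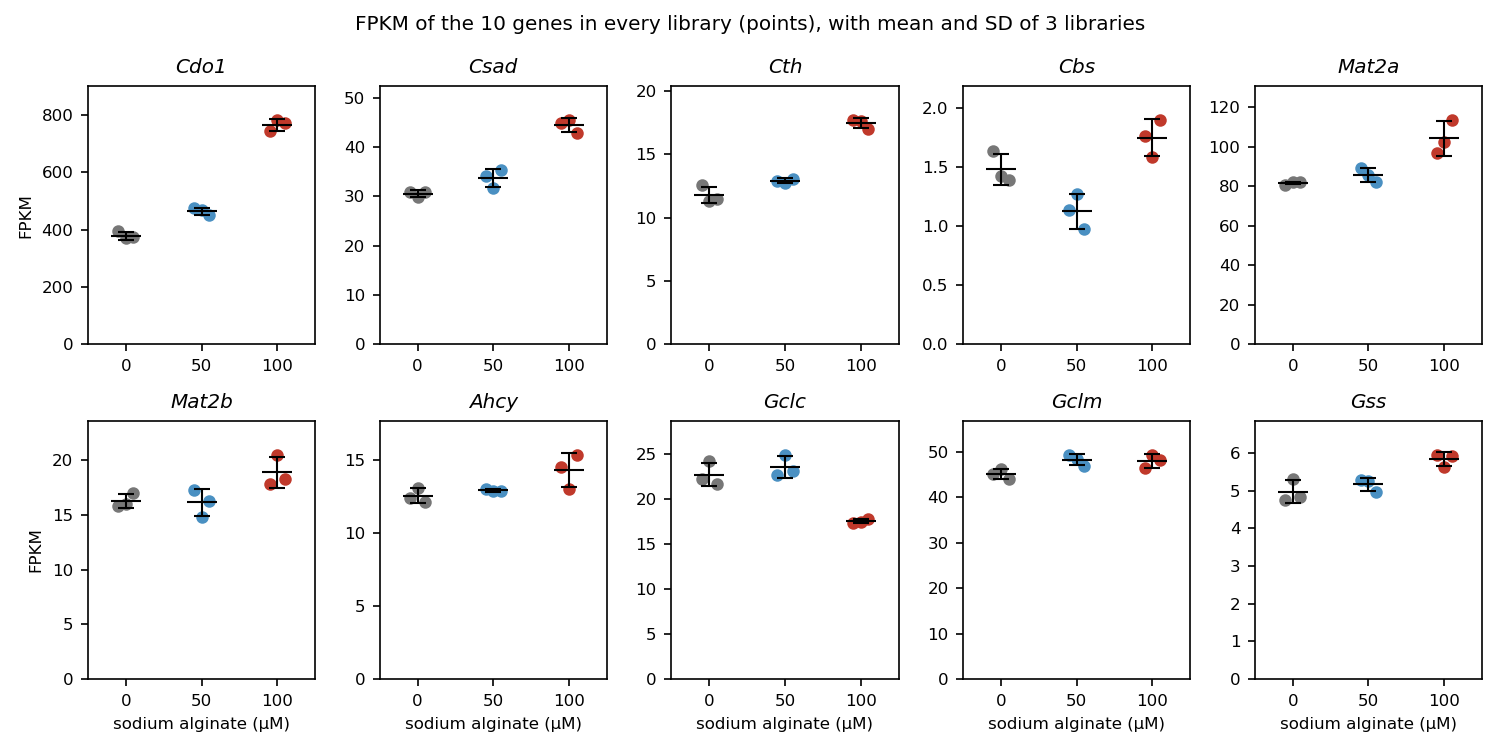
Level of each of the 10 genes in FPKM (y axis, starting at 0, own scale per gene) in every library at 0, 50 and 100 µM sodium alginate (x axis), with points for libraries, long bars for means and error bars for the SD of 3 libraries. Cdo1, Csad and Cth sit highest at 100 µM in all 3 libraries, Gclc sits lowest there, and Cbs is lowest at 50 µM.

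The pathway begins with methionine adenosyltransferase. Mat2a (chromosome 6, 74900063 to 74908772, minus strand, on the strain assembly used by the table) encodes its catalytic subunit in tissues other than liver. Mat2a stood at 80.8, 82.0 and 82.1 FPKM at 0 µM, at 89.0, 85.4 and 82.2 FPKM at 50 µM and at 96.6, 102 and 114 FPKM at 100 µM. Every 100 µM library was above every other library, and the 100 µM libraries were spread more widely than the 0 µM ones. Mat2a rose at 100 µM against 0 µM, with a log2 fold change of 0.34 ± 0.059 (SE, adjusted p = 0.00192). It also rose against 50 µM, by 0.28 (adjusted p = 0.00877), a call lost after rescaling to a common sum (adjusted p = 0.0537) or quantile normalization (adjusted p = 0.0874).

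Mat2b (chromosome 11, 40525515 to 40544599) encodes the regulatory subunit of the same enzyme. Its levels were 15.8, 16.0 and 17.0 FPKM at 0 µM, then 17.3, 14.8 and 16.3 FPKM at 50 µM and 17.9, 20.5 and 18.3 FPKM at 100 µM. The 100 µM libraries lay just above the rest, and the 0 and 50 µM libraries were intermixed. Mat2b was called higher at 100 µM against 0 µM with a log2 fold change of 0.20 ± 0.068 (adjusted p = 0.0481), and 14 of 19 alternatives lost that call, with an adjusted p of up to 0.169. Within a library, the geometric mean ratio of Mat2a to Mat2b was 5.51 at 100 µM and 5.02 at 0 µM. That ratio overlapped between the doses and differed by 0.14 on the log2 scale (exact permutation p = 0.3, two-sided, 3 against 3 libraries).

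Ahcy encodes S-adenosylhomocysteine hydrolase, which releases homocysteine. The table gives no row with its symbol, and it was read from the protein-coding row on chromosome 2 (164536816 to 164551537) with that enzyme's description. Another protein-coding row on chromosome 1 with the same description averaged 2.00 FPKM and pseudogene rows exist, so its value is uncertain. Levels in the chromosome 2 row were 12.4, 13.1 and 12.1 FPKM at 0 µM, then 13.0, 12.8 and 12.9 FPKM at 50 µM and 14.5, 13.0 and 15.4 FPKM at 100 µM. The 100 µM library 2 lay within the 0 µM range and the other two 100 µM libraries above it. Its log2 fold change at 100 µM against 0 µM was 0.17 ± 0.060 with an adjusted p of 0.0495, and 18 of 19 alternatives lost the call, with an adjusted p of up to 0.271.

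Cbs (chromosome 17, 32480988 to 32507442) encodes cystathionine beta-synthase, which joins homocysteine to serine. It had the lowest level of the 10 genes at every dose. Cbs stood at 1.63, 1.42 and 1.39 FPKM at 0 µM, at 1.14, 1.27 and 0.971 FPKM at 50 µM and at 1.76, 1.59 and 1.90 FPKM at 100 µM. Its 50 µM libraries were the lowest and its 0 and 100 µM ranges overlapped. Cbs was called higher at 100 µM against 50 µM, with a log2 fold change of 0.37 ± 0.096 (adjusted p = 0.0214). That call was lost without 50 µM library 3 (adjusted p = 0.0650), without 100 µM library 1 (0.0521) or without 100 µM library 3 (0.0734). Neither 100 µM nor 50 µM differed from 0 µM by the test, with log2 fold changes of 0.15 (95% interval -0.07 to 0.37, adjusted p = 0.274) and -0.22 (adjusted p = 0.333).

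Cth (chromosome 3, 167345495 to 167379557) encodes cystathionine gamma-lyase, which releases cysteine. Its levels were 12.6, 11.3 and 11.5 FPKM at 0 µM, then 12.9, 12.7 and 13.1 FPKM at 50 µM and 17.7, 17.7 and 17.0 FPKM at 100 µM. The 3 doses did not overlap, with a small gap between 0 and 50 µM and a wide one below 100 µM. Cth rose at 100 µM by 0.53 ± 0.047 against 0 µM (adjusted p = 5.46e-05) and by 0.41 against 50 µM (adjusted p = 0.000503). At 0 and 50 µM, Cth and Ahcy had overlapping levels, while at 100 µM Cth lay above Ahcy and overlapped Gclc.

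Cysteine is committed to taurine by cysteine dioxygenase, the product of Cdo1 (chromosome 18, 47129779 to 47146591). Cdo1 had the highest level of the 10 genes at every dose. It stood at 395, 370 and 373 FPKM at 0 µM, at 474, 468 and 452 FPKM at 50 µM and at 744, 784 and 773 FPKM at 100 µM. The 3 doses did not overlap. Its means were 379 ± 13.8, 465 ± 11.6 and 767 ± 20.8 FPKM (SD, n = 3 each) at 0, 50 and 100 µM. The log2 fold change was 1.01 at 100 µM against 0 µM, 0.29 at 50 µM against 0 µM and 0.72 at 100 µM against 50 µM. Over the 19 alternatives the 100 µM against 0 µM value ranged from 0.91 to 1.04. By mean level Cdo1 was number 103 of the 12635 genes at 0 µM, number 70 at 50 µM and number 35 at 100 µM.

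Over the 9 libraries, the genes whose profile lay nearest to that of Cdo1 among 7447 genes compared included Acss2, Chchd10, Agpat2 and Cyp51. The measure was the root mean square difference of centred log2 values, which was 0.0307 for Acss2 and 0.0603 for Cyp51. Acss2, which makes acetyl-CoA from acetate, averaged 9.16, 11.7 and 20.0 FPKM at 0, 50 and 100 µM. Agpat2, an acyltransferase of triglyceride synthesis, averaged 399, 489 and 758 FPKM at these doses. Cyp51, a demethylase of cholesterol synthesis, averaged 94.3, 114 and 188 FPKM. These genes were chosen for their likeness, which is a description with no test.

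Csad (chromosome 15, 108210627 to 108238529), whose promoter is printed above, encodes cysteine sulfinic acid decarboxylase. It makes hypotaurine from the product of Cdo1. Csad stood at 30.9, 29.8 and 30.9 FPKM at 0 µM, at 34.1, 31.8 and 35.4 FPKM at 50 µM and at 44.8, 45.6 and 42.9 FPKM at 100 µM. The 3 doses did not overlap, and the gap below the 100 µM libraries was the widest. Csad rose at 100 µM by 0.53 ± 0.048 against 0 µM (adjusted p = 6.00e-05) and by 0.39 against 50 µM (adjusted p = 0.000641). In mean FPKM this was 45.5% above 0 µM.

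Of 3 other genes tested in the list of taurine metabolism, 1 rose at 100 µM against 0 µM, beside 18.3% of all genes called higher and 15.6% lower. With 3 genes this count says little about the list. Fmo1, a flavin monooxygenase that oxidises hypotaurine to taurine, rose to 32.0 ± 3.23 FPKM at 100 µM, against 15.0 ± 1.36 FPKM at 0 µM (log2 fold change 1.04, adjusted p = 3.76e-05). It averaged 16.0 FPKM at 50 µM and was not called there (adjusted p = 0.705). Ado, the dioxygenase that makes hypotaurine from cysteamine, was not called, averaging 14.1 FPKM at 100 µM and 13.2 FPKM at 0 µM (adjusted p = 0.412). Pter, which hydrolyses N-acetyltaurine, averaged 1.98 FPKM at 100 µM and 2.45 FPKM at 0 µM (adjusted p = 0.0624), and 5 of 19 alternatives called it lower. Slc6a6, the taurine transporter, averaged 14.1 FPKM at 100 µM and 12.7 FPKM at 0 µM. Its adjusted p was 0.0435, and 15 of 19 alternatives lost the call, with an adjusted p of up to 0.400.

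Glutathione synthesis starts with glutamate-cysteine ligase. Gclc (chromosome 9, 80296095 to 80338859) encodes its catalytic subunit. Gclc stood at 22.2, 24.1 and 21.7 FPKM at 0 µM, at 22.7, 24.9 and 23.0 FPKM at 50 µM and at 17.3, 17.4 and 17.8 FPKM at 100 µM. The 0 and 50 µM libraries overlapped, and all 3 libraries at 100 µM lay below both. Gclc fell by 0.35 ± 0.052 at 100 µM against 0 µM on the log2 scale (adjusted p = 0.000847) and by 0.41 against 50 µM (adjusted p = 0.000763). At 50 µM against 0 µM the log2 fold change was 0.05 (95% interval -0.07 to 0.17, adjusted p = 0.730).

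Gclm (chromosome 3, 129005047 to 129027430) encodes the modifier subunit that raises the efficiency of Gclc, and its promoter is printed above. Its levels were 45.2, 46.2 and 44.0 FPKM at 0 µM, then 49.3, 48.5 and 46.9 FPKM at 50 µM and 46.5, 49.4 and 48.1 FPKM at 100 µM. The 50 and 100 µM libraries overlapped each other and lay slightly above those at 0 µM. The log2 fold change at 100 µM against 0 µM was 0.09 (95% interval -0.0019 to 0.18, adjusted p = 0.122), and Gclm was called in no comparison and under no alternative.

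The ratio of Gclc to Gclm within a library does not depend on the scaling of that library. It ranged from 0.352 to 0.372 at 100 µM and from 0.492 to 0.523 at 0 µM, with no overlap. The geometric means, 0.364 at 100 µM and 0.502 at 0 µM, differed by -0.46 on the log2 scale (exact permutation p = 0.1, two-sided). With 3 against 3 libraries 0.1 is the smallest p the design allows. Between 50 µM and 0 µM the ratio differed by -0.04 (exact permutation p = 0.4). In all, 12 ratio comparisons were made, and the lowest Benjamini-Hochberg adjusted p among them was 0.3 (exact permutation).

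Gss (chromosome 2, 165096401 to 165129641, minus strand) encodes glutathione synthetase, which adds glycine to complete glutathione. Its levels were 4.76, 5.32 and 4.83 FPKM at 0 µM, then 5.28, 5.27 and 4.97 FPKM at 50 µM and 5.96, 5.63 and 5.93 FPKM at 100 µM. The 100 µM libraries lay above all others, and 0 µM library 2 lay above the 50 µM libraries. Gss was called higher at 100 µM against 0 µM, with a log2 fold change of 0.20 ± 0.055 (adjusted p = 0.0220), and 7 of 19 alternatives lost the call, with an adjusted p of up to 0.131. From start to end, introns included, Gss shares 23471 bases with Acss2 on the opposite strand. The gene length listed for Gss is 5864 bases, and how much of that overlaps Acss2 was not computed. Acss2 averaged 20.0 FPKM at 100 µM, against 9.16 FPKM at 0 µM, and whether reads were counted by strand is not stated, which leaves the reads of these genes possibly mixed. The part of Acss2 reads in the value of Gss was not tested. The ratio of Gss to Gclc ranged from 0.324 to 0.344 at 100 µM and from 0.215 to 0.223 at 0 µM, a difference of 0.61 between mean log2 ratios (exact permutation p = 0.1, the smallest possible).

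**Figure D2:**
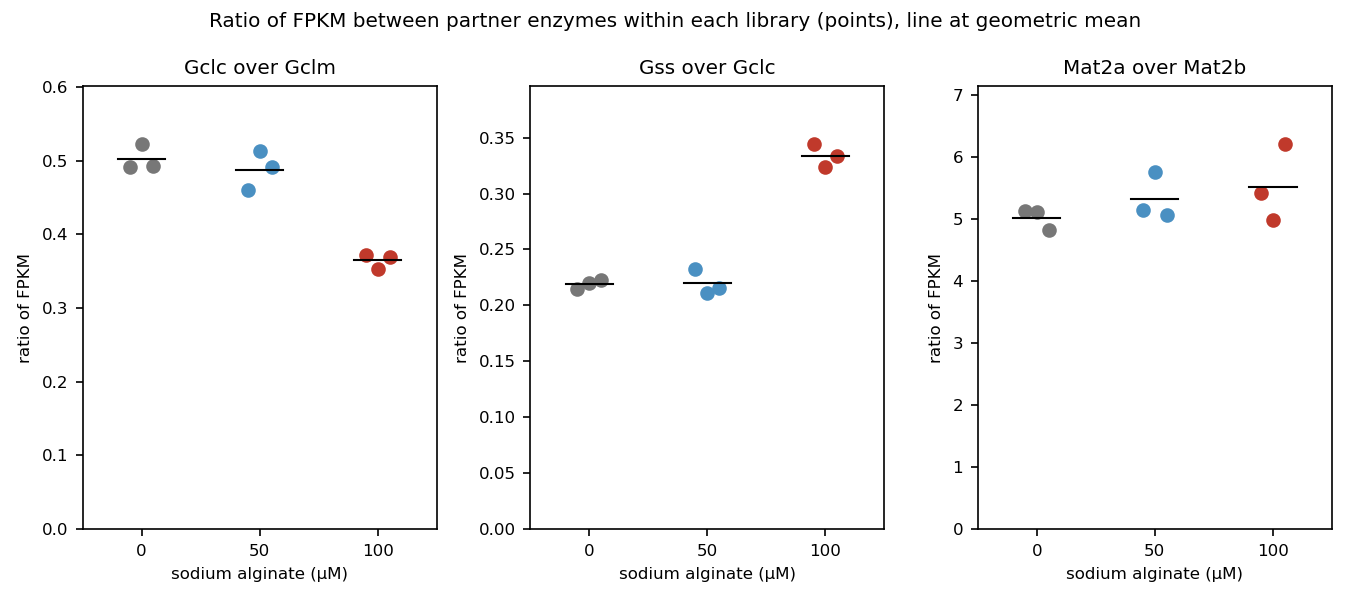
Ratio of FPKM between partner enzymes within each library (y axis, starting at 0) at 0, 50 and 100 µM sodium alginate (x axis), with points for libraries and lines for geometric means of 3 libraries. Gclc over Gclm is lower and Gss over Gclc higher in all 3 libraries at 100 µM than in any other library, while Mat2a over Mat2b overlaps between doses.

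At 50 µM against 0 µM, 0 of the 9 genes were called by limma, where 0.356% of all genes were called higher and 0.435% lower. At an unadjusted p below 0.05 there were 4, namely Csad, Cth, Cbs and Gclm, and limma with voom weights on rebuilt reads also called 0. The 3 and 3 values did not overlap for 4 of the 9 in the higher direction (Csad, Cth, Gclm and Mat2a) and for Cbs in the lower, where 12.1% and 8.58% of all genes had such a gap. The median log2 fold change of the 9 was 0.05, and 0.01 over all genes. At 100 µM against 50 µM, 5 were called higher (Csad, Cth, Cbs, Mat2a and Mat2b) and Gclc lower, where 13.2% of all genes were called higher and 12.0% lower. Gss, at 0.15 (adjusted p = 0.0805), was not called there. The values did not overlap for 6 of the 9 in the higher direction and for Gclc in the lower, where 20.9% and 19.5% of all genes had such a gap. Without 50 µM library 3 or without 100 µM library 3, 3 rather than 5 were called higher. Over all genes, 1327 and 1294 were called higher without these libraries, against 1663. The call of Mat2b (adjusted p = 0.0470) was lost in 15 of 19 alternatives. The 3 comparisons share libraries, so they are not independent of each other.

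**Figure D3:**
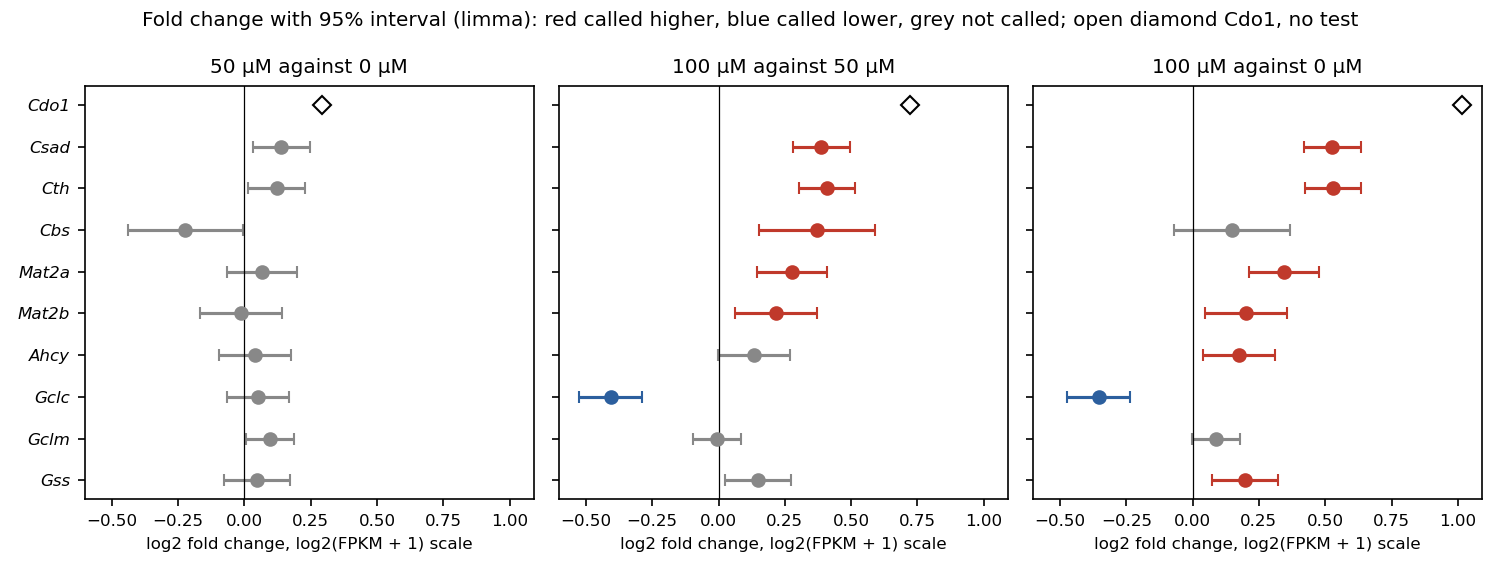
Log2 fold change on the log2(FPKM + 1) scale (x axis) of the 10 genes (rows) for 50 µM against 0 µM, 100 µM against 50 µM and 100 µM against 0 µM, with bars for 95% intervals from limma, red for genes called higher, blue for lower and grey for not called. Cdo1 is an open diamond with no interval, at 0.29, 0.72 and 1.01, and no gene in the 50 µM panel is red or blue.

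The order of levels was the same at 0 and 50 µM, namely Cdo1, Mat2a, Gclm, Csad, Gclc, Mat2b, Ahcy, Cth, Gss and Cbs. Among neighbours in that order, Ahcy and Cth were the pair whose ranges overlapped. At 100 µM Mat2b stood above Gclc, with ranges of 17.9 to 20.5 FPKM for Mat2b and 17.3 to 17.8 FPKM for Gclc. Csad averaged 44.4 FPKM at 100 µM, just below Gclm at 48.0 FPKM, whereas at 0 µM it averaged 30.5 FPKM and Gclm 45.1 FPKM.

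Around these genes, the other members of 10 pathway lists were counted at 100 µM against 0 µM. Beside them again stand 18.3% called higher and 15.6% lower over all genes. The lists were chosen with earlier results of these data known, so the counts are a description and not an independent comparison. In the list of transsulfuration and sulfide oxidation, 5 of 7 other genes tested rose, and the median log2 fold change was 0.36. The transsulfuration genes Cbs and Cth belong to the 10 and are not in this count. Under the alternatives 3 to 5 rose. Mpst, a sulfurtransferase that acts on mercaptopyruvate made from cysteine, averaged 29.5 ± 3.40 FPKM at 100 µM and 22.0 ± 0.646 FPKM at 0 µM (0.40, adjusted p = 0.00331). Got1 and Got2, the aspartate aminotransferases, rose by 0.48 (adjusted p = 5.08e-05) and 0.49 (adjusted p = 3.28e-05), and Tst and Sqor were the others. Tst, rhodanese, was called at an adjusted p of 0.0158 and lost the call in 3 of 19 alternatives. Ethe1 and Suox were not called, averaging 4.52 and 4.26 FPKM at 100 µM, against 4.13 and 4.82 FPKM at 0 µM.

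In the list of coenzyme A synthesis, 4 of 7 tested genes rose, with a median of 0.37. The list includes the pantothenate kinases, which act before cysteine is joined, so the count is not of cysteine use alone. Pank2, Pank4 and Ppcdc were not called. Coasy, which completes coenzyme A, averaged 22.0 ± 0.864 FPKM at 100 µM and 14.9 ± 0.750 FPKM at 0 µM (0.54, adjusted p = 0.000133). Pank1 and Pank3, pantothenate kinases, rose by 0.75 (adjusted p = 0.000980) and 0.37 (adjusted p = 0.0106), and the call of Pank3 was lost in 2 of 19 alternatives. Ppcs, which joins cysteine to phosphopantothenate, averaged 26.0 FPKM at 100 µM and 18.0 FPKM at 0 µM (0.51, adjusted p = 0.00155).

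In the methionine cycle 4 of 10 other tested genes rose, with a median of 0.05. They included Slc25a26, the mitochondrial S-adenosylmethionine carrier, at 6.73 FPKM at 100 µM and 4.45 FPKM at 0 µM (0.50, adjusted p = 0.00118). They also included Nnmt, which methylates nicotinamide, at 105 FPKM at 100 µM and 88.2 FPKM at 0 µM (0.25, adjusted p = 0.00517). Ahcyl2 and Pemt, the phosphatidylethanolamine methyltransferase, were the others, and Pemt lost its call in 3 of 19 alternatives. In methionine salvage and polyamine synthesis 1 of 10 rose, Apip, an enzyme of salvage, at 0.41 (adjusted p = 0.000458). In these 4 lists limma called 0 genes lower, also at an unadjusted p below 0.05, and voom called 0 lower except 1 in the methionine cycle.

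Outside the synthesis steps, 2 of 10 other tested glutathione genes rose and 1 fell, with a median of -0.009. Oplah, the 5-oxoprolinase of glutathione breakdown, rose by 0.49 (adjusted p = 0.000237) and Lap3, a leucine aminopeptidase, by 0.24 (adjusted p = 0.00264). Ggt7, of the gamma-glutamyltransferase family, fell by 0.45 (adjusted p = 0.00562). Under the alternatives 1 to 4 of the 10 were called lower, and 4 after rescaling to a common sum. Gsr, glutathione reductase, was not called, averaging 26.1 FPKM at 100 µM and 24.5 FPKM at 0 µM (adjusted p = 0.278).

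Of 14 transport genes tested, 4 rose and 3 fell, with a median of 0.08. Slc1a5, a neutral amino acid transporter, averaged 520 ± 9.38 FPKM at 100 µM and 342 ± 5.37 FPKM at 0 µM (0.60, adjusted p = 1.63e-05). Slc25a39, the mitochondrial glutathione carrier, averaged 97.2 ± 3.40 FPKM at 100 µM and 65.5 ± 1.47 FPKM at 0 µM (0.56, adjusted p = 2.30e-05). Slc7a11, the cystine importer, fell to 3.26 ± 0.277 FPKM at 100 µM, against 4.12 ± 0.0968 FPKM at 0 µM (-0.27, adjusted p = 0.00886). Abcc1, which exports glutathione conjugates, fell by 0.22 (adjusted p = 0.00794). Between 2 and 5 of the 14 were called higher and 3 or 4 lower under the alternatives.

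In serine and folate metabolism, which supplies the serine used by Cbs, 6 of 13 tested genes rose and 2 fell, with a median of 0.11. Psat1, a serine synthesis aminotransferase, averaged 84.7 ± 1.05 FPKM at 100 µM and 67.1 ± 0.746 FPKM at 0 µM (0.33, adjusted p = 0.000125). Mthfd2 rose by 0.54 (adjusted p = 8.92e-05) and Shmt1, a serine hydroxymethyltransferase, by 0.38 (adjusted p = 0.000406), whereas Aldh1l2 fell by 0.45 (adjusted p = 0.00385).

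NRF2 is a transcription factor known to act on Gclc and Gclm, and ATF4 on Cth, and the lists of both were mixed in direction. The NRF2 list holds regulators and targets of an antioxidant program. Of its 17 other genes, 6 rose and 5 fell, with a median of 0.09. The alternatives gave 4 to 8 higher and 3 to 7 lower. Those that rose included all 4 enzymes of the pentose phosphate pathway in the list, G6pdx, Pgd, Tkt and Taldo1, with log2 fold changes between 0.49 and 0.72. Srxn1 and Keap1, a regulator gene and not a target, were the others. Taldo1 and Tkt were also the 2 other genes of the pathway lists called at 50 µM against 0 µM, at 0.24 (adjusted p = 0.0279) and 0.23 (adjusted p = 0.0366). The call of Taldo1 at 50 µM was lost in 11 of 19 alternatives and that of Tkt in 13, with an adjusted p of up to 0.121 for Taldo1 and 0.129 for Tkt. Those that fell were Nqo1, Hmox1, Slc7a11, Abcc1 and Fth1, and the regulator gene Nfe2l2 was not called. Of 14 other genes in the ATF4 list, an amino acid stress program, 5 rose and 3 fell, with a median of 0.09. Asns, asparagine synthetase, rose by 0.39 (adjusted p = 8.97e-05), Vldlr by 0.37 (adjusted p = 0.00100) and Ddit4 fell by 0.47 (adjusted p = 0.00204). Some genes stand in several lists, Slc7a11 in 3 of them, so the counts overlap.

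**Figure D4:**
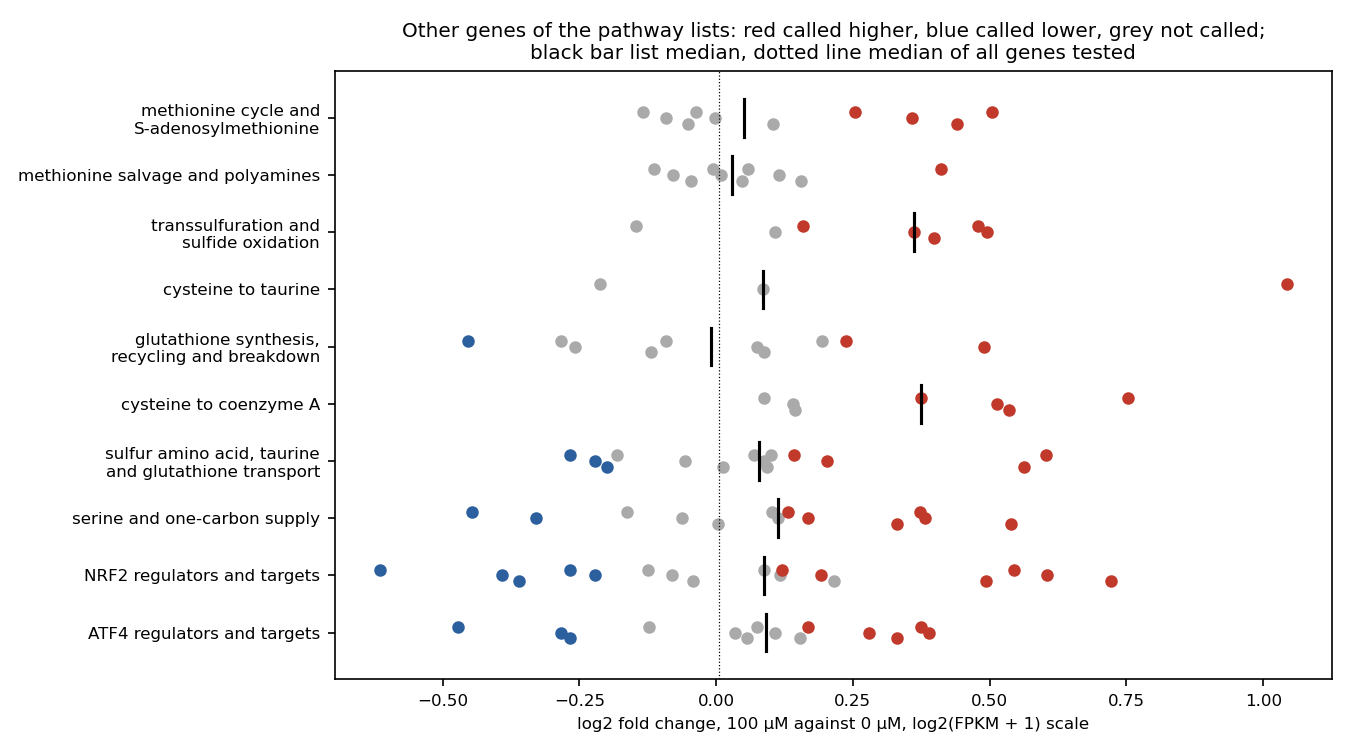
Log2 fold change at 100 µM against 0 µM on the log2(FPKM + 1) scale (x axis) of the other genes of 10 pathway lists (rows), with red points for genes called higher, blue for lower and grey for not called, black bars for list medians and a dotted line for the median of all genes tested. The coenzyme A list and the transsulfuration and sulfide oxidation list have medians of 0.37 and 0.36 and no blue point. Cbs and Cth are not among the points. The NRF2 list has points of both colours.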

How the data were processed

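The authors deposited 1 table of FPKM values, per the file headers, with gene length, biotype, coordinates and description per row, for 9 libraries. Aligner, counting tool and strand setting were not given in the sources used here. GRCm38 and mm10 are named in the submitters' processing notes, but the gene identifiers belong to the C57BL/6NJ strain. Coordinates of genes are the table's own and those of promoters are on GRCm38.p6. All values (100%) were whole multiples of 1 read per library within 0.01 read, so reads were rebuilt for the voom alternative. The deposited values carry a library factor, and it differed by dose. The total used for scaling, divided by the rebuilt reads, was 1.013 to 1.027 at 0 µM and 1.019 to 1.023 at 50 µM. At 100 µM it was 0.969 to 0.976, which scales the 100 µM values up relative to the other doses. With the factor removed, the median log2 fold change over all genes at 100 µM against 0 µM was -0.052, against 0.006 with it.

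The test was limma 3.58.1 (R 4.3.3) on log2(FPKM + 1), with 1 mean per dose over all 9 libraries and a variance trend. Fold changes are on that scale and understate changes of low genes. Ratios were tested with the exact permutation test of scipy 1.17.1. The procedure was run on simulated reads that had no library factor and equal numbers of genes raised and lowered. That run therefore cannot tell how the scaling of these data affects the calls. Alternatives were 10 other settings (pseudocount, filter, 5 scalings, replicate block, fewer doses, no trend) and leaving out each of the 9 libraries.

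The genes and lists were chosen with earlier results of these data known. Named genes are the 10, up to 4 others per pathway list with the smallest p at 100 µM against 0 µM, Slc6a6, Slc7a11, Gsr, Fmo1 and Ado, and the 5 profiles nearest to Cdo1. Not every gene that met this rule is reported here. Genes named beside a small count outside that rule were named after their values were seen. Of 170 list symbols 169 were found.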

Additional observations from a re-analysis of the deposited data

How the results depend on the processing

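Called higher at 100 µM against 0 µM were 3 of the 9 genes on values rescaled to a common sum, with the authors' factor removed and with voom, against 6 in the values reported, and 3 to 5 when 1 library was left out. At 100 µM against 50 µM, 3 were called higher on values rescaled to a common sum and after quantile normalization, against 5, and again 3 to 5 when 1 library was left out. Over all genes, limma called 1630 higher at 100 µM against 0 µM on the common sum. It called 1731 with the factor removed, 1829 with voom and 2314 in the values reported. With 1 library left out it called 1869 to 2365. At 100 µM against 50 µM it called 1060 on the common sum and 1468 after quantile normalization, against 1663. With 1 library left out it called 1171 to 1617 there. Gclc was called lower in both comparisons under all 19 alternatives. Leaving out a library also leaves fewer samples, and the cause of the lost calls was not tested in any of these runs. Over the runs that left out 1 library, the log2 ratio differences changed sign in 3 cases, all near 0: Gss over Gclc at 50 µM against 0 µM (-0.0368 to 0.0321), Ahcy over Mat2a at 50 µM against 0 µM (-0.0528 to 0.00476) and Mat2a over Mat2b at 100 µM against 50 µM (-0.0334 to 0.125). Same-numbered libraries of different doses had correlations of deviations between -0.094 and 0.041, so the numbers were not taken to pair samples. With the replicate number as a block, 4 of the 9 genes were higher and 1 lower at 100 µM against 0 µM. The counts were likewise 4 higher and 1 lower at 100 µM against 50 µM. Over all genes the block called 2061 higher and 1747 lower at 100 µM against 0 µM. It called 1377 higher and 1269 lower at 100 µM against 50 µM. Over all genes at 50 µM against 0 µM the block called 0, with 1603 at an unadjusted p below 0.05, where the fit without it called 100. That count was 12 with no filter and 362 with voom, and by limma 0 with only the doses compared or with no variance trend (1837 and 1755 at an unadjusted p below 0.05). It also rested on single libraries: it was 1, 0 and 1 without 0 µM library 1, 2 or 3, and 40, 0 and 13 without 50 µM library 1, 2 or 3. The 2 counts of 0 came with 1539 and 1630 genes at an unadjusted p below 0.05. Without 100 µM library 2 it was 53. Cbs had the fewest reads of the 10 genes, 51 to 98 per library.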
